A study of Rattus norvegicus with 24 samples.

Results

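The CYP4A and CYP4F fatty acid hydroxylases of rat liver were followed by name through the deposited log2 signals, together with Cyp4b1 and Cyp4v3 of the same P450 family. Of 9 listed genes, 8 had a row under their symbol among 23188 transcripts (Cyp4a1, Cyp4a2, Cyp4a8, Cyp4b1, Cyp4f1, Cyp4f4, Cyp4f18 and Cyp4v3). Cyp4a3 had none and was not analysed here. No measured value entered the choice by the rule, and each of the 8 genes was read by 1 probe set of 10 probes.

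Liver RNA of 24 male Zucker rats, aged 25 weeks at the start of feeding, was measured on Affymetrix Clariom S arrays, 1 array per rat and 6 rats in each of 4 groups. Obese rats, homozygous for the leptin receptor allele fa (fa/fa), and lean rats, which still carried 1 such allele (fa/+), were fed for 4 weeks on a basal diet alone (groups OC and LC) or on the same diet with ecdysterone added at 0.5 g per kg (groups OE and LE). The study asked whether ecdysterone, a steroid hormone of insects and plants, changes hepatic lipid metabolism, and here genotypes are compared within each diet and diets within each genotype. The arrayed rats were 6 of the 8 in each group, they were housed 2 per cage and were not fasted, and the labels do not tie a rat to its cage. The fa allele is carried by all cells of the body, so that the comparison is not specific to the liver. None of the 10 hepatocyte markers checked, among them albumin and transthyretin, was at background by its mean signal over the 24 arrays. Their summed log2 levels were 22.4 to 22.5 in LC and OC.

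CYP4 enzymes are monooxygenases of the endoplasmic reticulum that put a hydroxyl group on the terminal (omega) carbon of fatty acids. CYP4A enzymes act on medium- and long-chain fatty acids and on arachidonic acid, from which they make 20-HETE, and their genes are classical targets of the fatty acid receptor PPARα in rodent liver. CYP4F enzymes act on arachidonic acid and on leukotriene B4, which omega-hydroxylation inactivates, and several rat CYP4F genes are known to be lowered by peroxisome proliferators that raise CYP4A. The omega-hydroxy acids are oxidised further by alcohol and aldehyde dehydrogenases to dicarboxylic acids, which peroxisomes shorten.

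The CYP4F genes that fell in obese rats (Cyp4f1, Cyp4f6 and Cyp4f39, below) and the near-copies Cyp4a2 and Cyp4a3 are shown here by the 250 bases before their start, 5′ to 3′ on the strand of the gene, from RefSeq on build GRCr8. The capitals mark AGGTCA, a receptor half-site, which only the windows of Cyp4a2 and Cyp4a3 hold among these 5.
Cyp4f1: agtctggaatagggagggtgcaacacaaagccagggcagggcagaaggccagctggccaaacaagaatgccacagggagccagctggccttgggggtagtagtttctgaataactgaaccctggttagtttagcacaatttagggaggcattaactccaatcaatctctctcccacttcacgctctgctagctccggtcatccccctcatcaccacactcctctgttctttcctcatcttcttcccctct
Cyp4f6: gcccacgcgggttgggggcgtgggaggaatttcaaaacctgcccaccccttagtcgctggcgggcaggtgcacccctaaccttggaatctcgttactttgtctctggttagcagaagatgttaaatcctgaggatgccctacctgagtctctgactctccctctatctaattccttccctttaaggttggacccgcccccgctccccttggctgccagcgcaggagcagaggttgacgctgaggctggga
Cyp4f39: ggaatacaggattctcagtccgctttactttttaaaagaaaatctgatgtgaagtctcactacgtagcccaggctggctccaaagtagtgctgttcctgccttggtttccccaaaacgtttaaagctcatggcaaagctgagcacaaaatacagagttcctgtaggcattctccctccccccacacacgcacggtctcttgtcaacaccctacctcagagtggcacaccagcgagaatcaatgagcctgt
Cyp4a2: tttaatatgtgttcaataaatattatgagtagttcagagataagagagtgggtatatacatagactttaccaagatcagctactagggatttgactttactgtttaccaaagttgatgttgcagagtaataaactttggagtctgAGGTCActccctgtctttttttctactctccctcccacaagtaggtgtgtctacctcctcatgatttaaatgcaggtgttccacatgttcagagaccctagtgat
Cyp4a3: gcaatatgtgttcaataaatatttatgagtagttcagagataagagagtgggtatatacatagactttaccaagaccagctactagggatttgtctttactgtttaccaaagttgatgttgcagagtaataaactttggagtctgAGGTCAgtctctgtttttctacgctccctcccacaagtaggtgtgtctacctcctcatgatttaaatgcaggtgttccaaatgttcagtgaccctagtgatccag
They lie at chr7:12672554-12672803 on the minus strand (Cyp4f1), chr7:12708379-12708628 on the minus strand (Cyp4f6), chr7:12083638-12083887 on the plus strand (Cyp4f39), chr5:134170909-134171158 on the minus strand (Cyp4a2) and chr5:134352237-134352486 on the minus strand (Cyp4a3).

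Promoters were in the RefSeq table for 6 of the 9 listed genes (Cyp4a2, Cyp4a3, Cyp4a8, Cyp4b1, Cyp4f1 and Cyp4f18) and not for Cyp4a1, Cyp4f4 and Cyp4v3. Over windows of 300 bases (250 before to 50 after the start), the promoters of Cyp4a2 and Cyp4a3 were identical in 284 of 300 aligned positions, and that of the Cyp4a2-like gene Cyp4a2l1 held 264 bases of the Cyp4a2 window without a difference. The promoters of Cyp4f1 and Cyp4f6 shared 56.9% of aligned positions. None of the 15 windows of CYP4 genes held, on either strand, the direct repeat of AGGTCA with 1 base between the copies, which PPARα and its partner bind, nor the looser repeat of AGGNCA with the same spacing, nor TTANGTAA, a site of clock-controlled bZIP factors. These motifs were in 0.0538%, 0.415% and 2.24% of 33469 promoters of the same length, so that absence was the usual state. The single half-site AGGTCA, which is part of the first repeat, was in 5 of the 15 windows and in 16.2% of all. The 5 were Cyp4a2, Cyp4a3, Cyp4a2l1, Cyp4f37 and Cyp4f40. The windows of Cyp4a2, Cyp4a3 and Cyp4a2l1 are near-copies, so that the 5 are not independent matches. In Cyp4a2 and Cyp4a3 the half-site began 105 bases before the start. A match is a description of the letters and not a site in use.

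Cyp4f1, a hydroxylase of arachidonic acid and leukotriene B4 in the rat, was lower in obese than in lean livers on both diets. Its log2 signal (lowest, median and highest of 6 rats) was 17.16, 17.27 and 17.76 in LC and 16.55, 16.62 and 16.94 in OC. With ecdysterone it was 17.16, 17.34 and 17.68 in LE and 16.15, 16.48 and 16.72 in OE. Every obese rat lay below every lean rat of its diet, with a gap of 0.22 between the groups without ecdysterone and of 0.44 with it. The fall was 1.60-fold in OC vs. LC (log2 difference −0.68, SE 0.14, 95% confidence interval −0.96 to −0.39, adjusted p = 0.00378 from limma) and 1.88-fold in OE vs. LE (−0.91, SE 0.14, interval −1.20 to −0.63, adjusted p = 0.000153 from limma). The exact permutation test, two-sided over all splits of the 12 rats, gave p = 0.00216 in each comparison, the smallest it can give. This p is not adjusted over transcripts, and the share of all transcripts that separate in this way was not computed. Averaged over both diets the difference was −0.80 (SE 0.098, adjusted p = 1.74e-06 from limma), and it did not differ detectably between the diets (interaction −0.24, SE 0.20, adjusted p = 1). The order of the means was LE 17.37 ± 0.19, LC 17.35 ± 0.23, OC 16.67 ± 0.14 and OE 16.46 ± 0.24 (SD, n = 6). Neighbours of the same genotype overlapped, LC and OC did not.

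Cyp4f1 was the only 1 of the 8 genes past an adjusted p of 0.05, in OC vs. LC, in OE vs. LE and in their average. Over all transcripts limma called 2.59% in OC vs. LC (1.44% higher and 1.15% lower in obese rats), 2.11% in OE vs. LE (1.07% higher and 1.04% lower) and 6.52% in the average (3.56% higher and 2.95% lower), so that 1 of 8 is a count of a single gene. By p it ranked 216 of all transcripts in OC vs. LC and 52 in OE vs. LE. Because a whole liver sample was measured, less RNA per hepatocyte and fewer expressing cells cannot be told apart. Of the hepatocyte markers 1 of 10 (Apoa1) was higher and none lower in OC vs. LC, and in OE vs. LE Apoa1 was higher and Cps1 lower. Markers of other cells moved with the genotype, 4 of 10 of stellate cells and 5 of 8 of red blood cells being higher in OC (3 and 2 in OE vs. LE), with summed log2 levels of 13.7 to 14.1 in LC against 14.3 to 15.1 in OC for the former and 18.2 to 19.1 against 18.9 to 19.7 for the latter. Their part in the Cyp4f1 difference was not tested. With the level of 9 clock output genes as a covariate the difference was −0.64 in OC vs. LC and −0.82 in OE vs. LE.

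**Figure D1:**
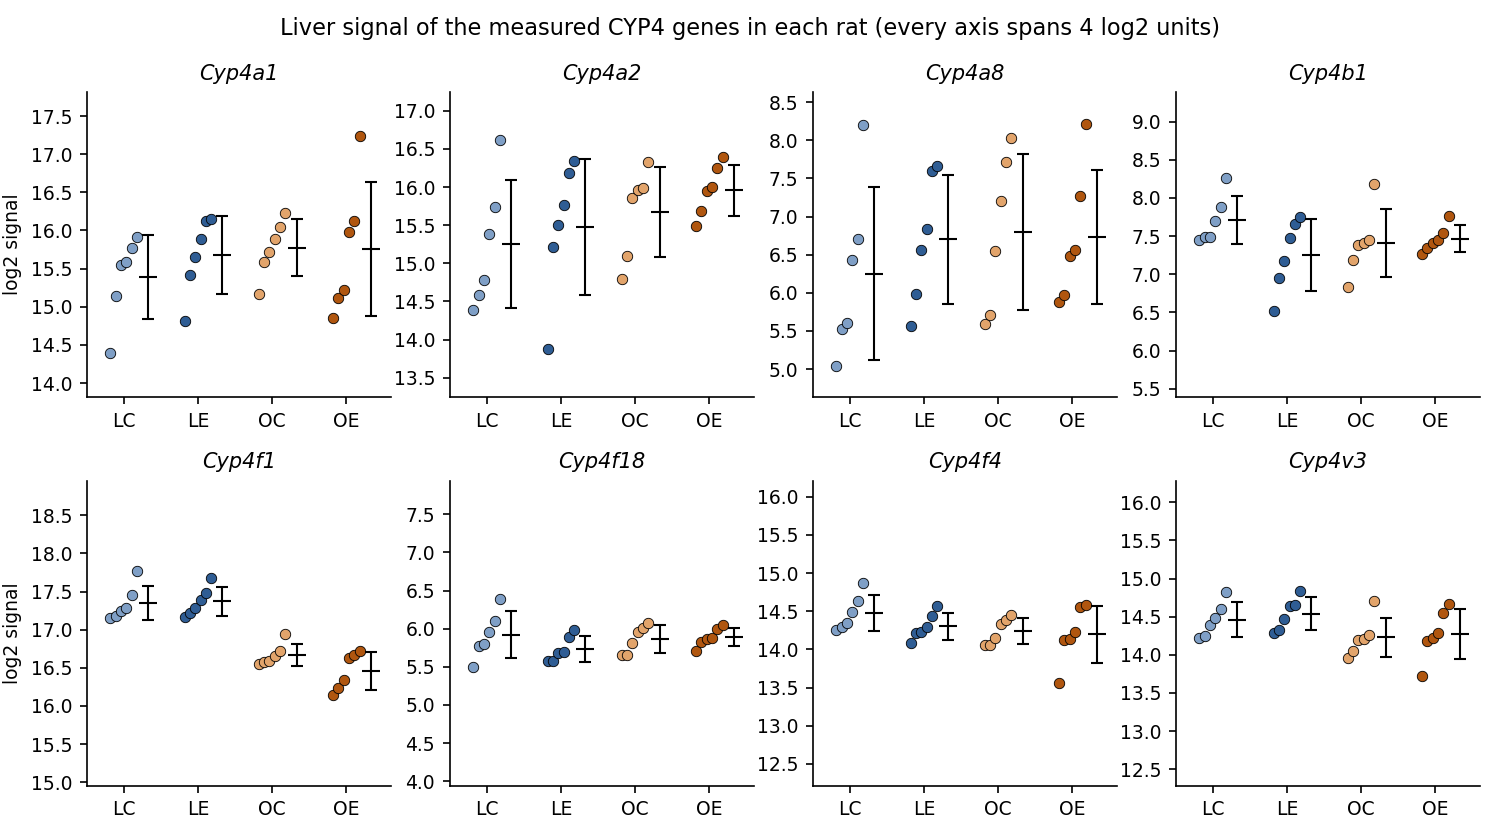
Log2 signal of the 8 measured CYP4 genes in each rat, by group (points, sorted by value within a group; bars, mean and SD of 6 rats), with every axis spanning 4 log2 units. Only in the panel of Cyp4f1 do the obese rats lie wholly below the lean ones, from 16.15 to 16.94 against 17.16 to 17.76, while Cyp4a1, Cyp4a2 and Cyp4a8 spread widely within every group.

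Neither of the other listed CYP4F genes passed the test. Cyp4f4, whose product also hydroxylates eicosanoids in the rat, had a log2 signal of 14.25, 14.42 and 14.87 in LC, 14.08, 14.26 and 14.57 in LE, 14.05, 14.24 and 14.45 in OC and 13.56, 14.18 and 14.58 in OE. All 4 groups overlapped, and the differences were −0.24 (SE 0.16, adjusted p = 0.57) in OC vs. LC and −0.11 (SE 0.16, adjusted p = 0.864) in OE vs. LE by limma. Cyp4f18, known in the mouse as the leukotriene B4 hydroxylase of neutrophils, had group means of 5.73 to 5.92. This is below 6.37, the 95th percentile of 1523 smell, taste and pheromone receptor genes taken as background, and all 8 neutrophil markers were in that range too. Its differences of −0.06 and 0.15 therefore say little about the gene.

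Whether Cyp4f1 differed from its relatives was tested on the signal of one gene minus that of the other in each rat, for 4 pairs in both genotype comparisons, 8 tests in all, with the pairs named when the fall of Cyp4f1 was known. Relative to Cyp4f4, Cyp4f1 was lower by 0.81 in OE than in LE (SE 0.23, exact permutation p = 0.00433, 0.0173 adjusted over the 8 tests) with 5 of 6 obese rats below all lean ones. In OC vs. LC the same difference was −0.44 (SE 0.18, exact permutation p = 0.0411, adjusted 0.0822) and missed the threshold. It passed in 2 of 12 omissions of a single rat, LC replicate 6 (−0.55) or OC replicate 17 (−0.53), and in none of 3 other settings. The pair of Cyp4f1 and Cyp4f18 was among the 8 tests, but with Cyp4f18 at background it says nothing of a difference between the genes beyond the fall of Cyp4f1 itself. Its exact permutation p-values (0.0108 in OC vs. LC and 0.00216 in OE vs. LE) entered the adjustment and lowered the adjusted p of the pair with Cyp4f4.

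Of the 7 other genes of the CYP4 family on the array, 1 fell in OC vs. LC (Cyp4f6) and 1 in OE vs. LE (Cyp4f39). Over all transcripts 1.15% and 1.04% were lower in these comparisons, so that each is a count of a single gene. Cyp4f6, like Cyp4f1 a hepatic CYP4F enzyme of the rat, lies close to it on the same strand of chromosome 7 (15198939 to 15225399, against 15179474 to 15190832 for Cyp4f1, in the coordinates of the deposited table, whose build is not given in the sources used here). Its log2 signal was 12.54, 12.74 and 12.92 in LC and 11.93, 12.22 and 12.37 in OC, with no overlap, and the difference was −0.55 (SE 0.12, adjusted p = 0.00754 from limma). With ecdysterone it was 12.47, 12.60 and 12.89 in LE and 12.24, 12.40 and 12.62 in OE, which overlapped (−0.23, SE 0.12, adjusted p = 0.466). A second, dimmer probe set under the symbol Cyp4f6, at 14660728 to 14679556, differed by 0.29 in OC vs. LC (SE 0.24, adjusted p = 0.696), so that the fall rests on the probe set at the first place.

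Cyp4f39, whose human counterpart CYP4F22 hydroxylates very long fatty acids for the skin barrier, was lower in obese than in lean rats on the ecdysterone diet. Its log2 signal was 9.49, 10.22 and 10.58 in LE and 8.28, 8.92 and 9.36 in OE, with no overlap, a 2.22-fold fall (−1.15, SE 0.22, adjusted p = 0.00306 from limma). Without ecdysterone it was 9.37, 9.80 and 10.45 in LC and 8.53, 9.33 and 9.74 in OC, which overlapped (−0.60, SE 0.22, adjusted p = 0.194). Averaged over both diets Cyp4f6 (−0.39, adjusted p = 0.0037) and Cyp4f39 (−0.88, adjusted p = 0.000414) were both lower in obese rats by limma. The interaction did not pass for either (0.33, SE 0.17 for Cyp4f6 and −0.55, SE 0.32 for Cyp4f39, adjusted p = 1 for both), so that a difference between the diets is not shown. Cyp4f5, Cyp4f17, Cyp4f37, Cyp4f40 and Cyp4x1 passed in no comparison, with differences of −0.25 to 0.37.

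**Figure D2:**
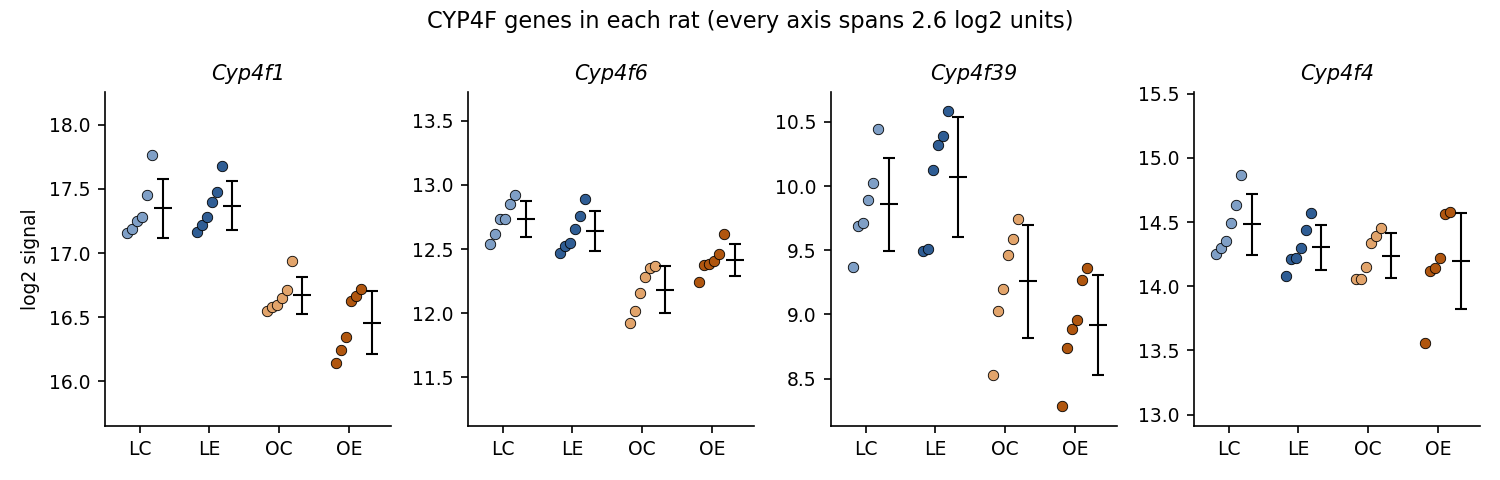
Log2 signal of Cyp4f1, Cyp4f6, Cyp4f39 and Cyp4f4 in each rat, by group (points, sorted by value; bars, mean and SD of 6 rats), on axes of 2.6 log2 units. Cyp4f1 separates lean from obese rats on both diets, Cyp4f6 without ecdysterone (12.54 and above in LC, 12.37 and below in OC), Cyp4f39 with it (9.49 and above in LE, 9.36 and below in OE), and the groups of Cyp4f4 overlap.

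Cyp4a1, Cyp4a2 and Cyp4a8, the fatty acid omega-hydroxylases of the PPARα programme, passed the test in neither genotype comparison. Cyp4a1 had a log2 signal of 14.39, 15.57 and 15.92 in LC, 14.82, 15.77 and 16.15 in LE, 15.17, 15.80 and 16.23 in OC and 14.86, 15.60 and 17.24 in OE. The groups overlapped over most of their range. The difference was 0.38 in OC vs. LC (SE 0.31, interval −0.25 to 1.02, adjusted p = 0.686) and 0.08 in OE vs. LE (interval −0.55 to 0.72, adjusted p = 0.96) by limma, so that rises of up to 2.02-fold without ecdysterone lie within the interval. Without the OE rat at 17.24 the difference in OE vs. LE was −0.22.

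Cyp4a2, known as a male-biased gene in rat liver and kidney, had a log2 signal of 14.39, 15.08 and 16.62 in LC, 13.87, 15.64 and 16.34 in LE, 14.80, 15.91 and 16.32 in OC and 15.50, 15.97 and 16.39 in OE. The lowest rats of the obese groups were above those of the lean groups, while the highest rats were alike. The differences were 0.42 (SE 0.35, adjusted p = 0.695) and 0.48 (SE 0.35, adjusted p = 0.646), and 0.45 averaged over both diets (SE 0.25, interval −0.06 to 0.96, adjusted p = 0.357) by limma. The near-copies of this gene on chromosome 5, Cyp4a3 and a Cyp4a2-like gene among them, could share its probes, so that the signal may hold transcripts of more than 1 gene. Cyp4a8 had a mean signal of 6.62 against a median of 6.55 over the array, and ranged from 5.05 to 8.22 over the 24 rats. Between genotypes it differed by 0.55 (SE 0.48) and 0.03 (SE 0.48). The pairs Cyp4a1 with Cyp4a2 and Cyp4a1 with Cyp4a8 differed by −0.40 to 0.05 in their response to genotype, with exact permutation p-values of 0.292 to 0.924 and SE of 0.36 to 0.56, which leaves unequal responses of that size undetectable.

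Cyp4b1, an enzyme mainly of lung that hydroxylates short fatty acids and activates pro-toxicants, had a log2 signal of 7.45, 7.60 and 8.27 in LC, 6.51, 7.32 and 7.75 in LE, 6.83, 7.40 and 8.19 in OC and 7.27, 7.43 and 7.77 in OE. Its differences between genotypes were −0.30 (SE 0.20) and 0.21 (SE 0.20) and did not pass. In the coordinates of the deposited table Cyp4a1 (134492754 to 134507158, plus strand of chromosome 5) lies within the span of Cyp4b1 (134468290 to 134526058, minus strand), which makes the assignment of signal to either less certain. Cyp4v3, whose human counterpart CYP4V2 is mutated in Bietti crystalline dystrophy of the retina, had a log2 signal of 14.21, 14.44 and 14.83 in LC, 14.29, 14.55 and 14.84 in LE, 13.96, 14.20 and 14.70 in OC and 13.73, 14.25 and 14.66 in OE. It was lower in obese rats by 0.23 and 0.27 on average, which did not pass in either comparison nor when averaged (−0.25, SE 0.11, unadjusted p = 0.0336, adjusted p = 0.224 by limma).

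**Figure D3:**
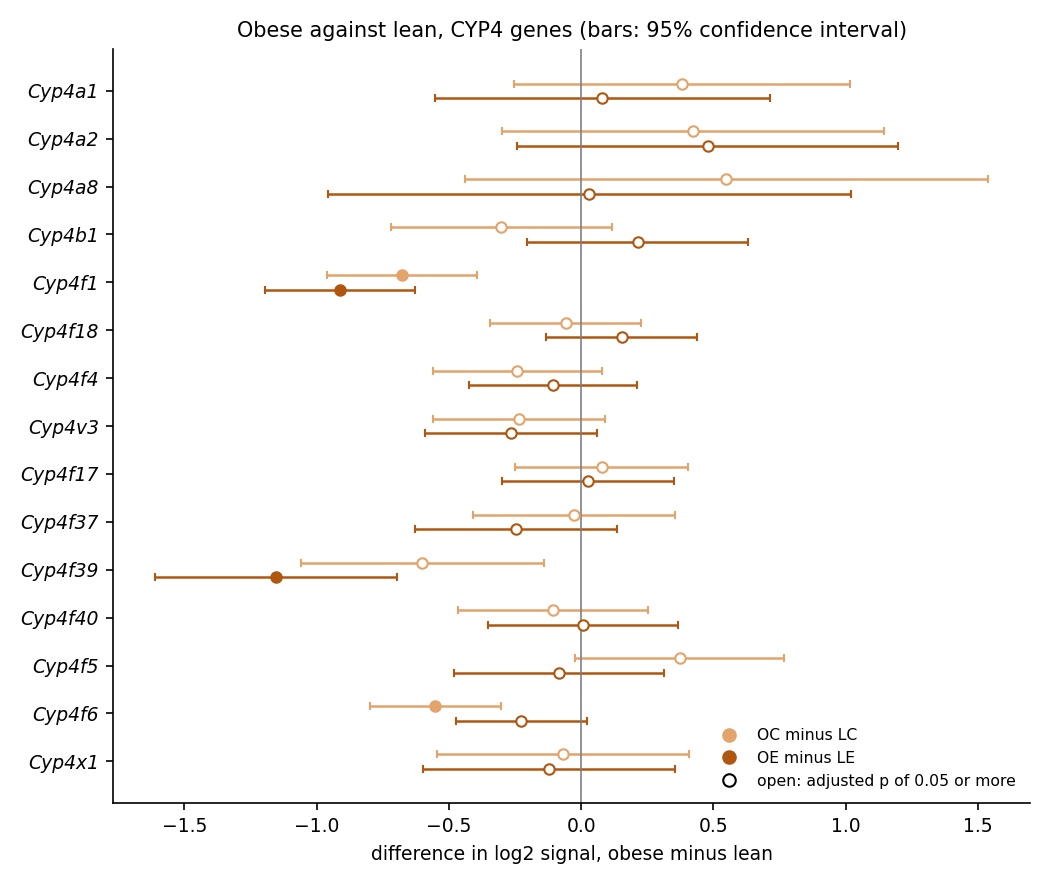
Difference in log2 signal between obese and lean rats for the 8 listed genes (from Cyp4a1 to Cyp4v3) and the 7 other CYP4 genes, without (OC minus LC) and with ecdysterone (OE minus LE), with 95% confidence intervals from limma; filled points have an adjusted p under 0.05. Cyp4f1 is filled in both comparisons, Cyp4f6 at −0.55 and Cyp4f39 at −1.15 in 1 each, and the intervals of the CYP4A genes reach from −0.96 to 1.54.

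Ecdysterone did not change the signal of any of the 8 genes past the threshold. In LE vs. LC, OE vs. OC, the average of both and the interaction limma called 0% of transcripts, so that 0 of 8 is the background. At an unadjusted p under 0.05 there were 813, 1322, 1133 and 912 of 23188 transcripts, and the methods' test called 0 in the first and the second as well (839 and 1307 unadjusted). The difference nearest to the threshold was that of Cyp4b1 in LE vs. LC (−0.46, SE 0.20, unadjusted p = 0.0324, adjusted p = 1, exact permutation p = 0.0758). Cyp4f1 differed by 0.02 in LE vs. LC (interval −0.26 to 0.30) and by −0.21 in OE vs. OC (interval −0.50 to 0.07, exact permutation p = 0.108). The interval of Cyp4a1 was −0.35 to 0.92 in LE vs. LC and −0.65 to 0.62 in OE vs. OC, so that rises of up to 1.89-fold and 1.54-fold lie within them. All rats of these comparisons are also in the genotype comparisons above.

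With the spread pooled over the 4 groups, rats of a group differed far more in the listed CYP4A genes than in Cyp4f1 and Cyp4f4. The within-group SD was 0.61 for Cyp4a1, 0.70 for Cyp4a2 and 0.98 for Cyp4a8, at the percentiles 97.7, 98.7 and 99.6 of all transcripts. Some rats for Cyp4a8 were below the background limit of 6.37, the lowest at 5.05. For Cyp4f1 the within-group SD was 0.21, for Cyp4f4 0.25 and for Cyp4v3 0.26, at the percentiles 6.26, 20.3 and 23.4. Not all CYP4F genes varied so little. In single groups the SD was 0.36 to 0.47 for Cyp4f39, against 0.37 to 0.88 for Cyp4a1. Among 1777 transcripts with a mean signal of 12 or more, Cyp4a1 and Cyp4a2 stood at the percentiles 92.7 and 94.9 and Cyp4f1 at 24.6. From the lowest to the highest rat Cyp4a1 spanned 7.19-fold, Cyp4a2 6.70-fold and Cyp4f1, genotypes included, 3.07-fold.

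The CYP4A genes varied together from rat to rat. With group means subtracted, Pearson's r over 24 rats was 0.70 between Cyp4a2 and Cyp4a8 (Spearman's rho 0.68, 0.68 in lean and 0.79 in obese rats), 0.52 between Cyp4a1 and Cyp4a2 and 0.49 between Cyp4a1 and Cyp4a8. These are descriptions with no test, and the rats share the joint normalisation of their arrays. The signal of Cyp4a8 was near background, with a mean of 6.25 in LC against the limit of 6.37, which makes its correlations less certain. For Cyp4f1 r was 0.09 with Cyp4a1 and 0.61 with Cyp4v3 (0.36 in lean and 0.83 in obese rats). Cyp4f4 and Cyp4a1 ran in opposite directions in obese rats (r = −0.91) and hardly so in lean rats (r = −0.16).

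Among all transcripts with a symbol, those most like Cyp4a1 within groups were Acot4 (r = 0.87, 0.90 in lean and 0.88 in obese rats), the peroxisomal thioesterase that splits dicarboxylyl-CoA, Hipk2 (r = 0.87), a nuclear kinase, and Acot2 (r = 0.85), a mitochondrial acyl-CoA thioesterase. Without the pair of rats farthest from the median of Cyp4a1, r with Acot4 was 0.81. Those most like Cyp4a2 were Ech1 (r = 0.79) and Eci1 (r = 0.76), isomerases of unsaturated fatty acid oxidation, and LOC100909556 (r = 0.75). Those most like Cyp4f1 were Cyp2d4 (r = 0.79), another P450, Htra2 (r = 0.79), a mitochondrial protease, and Hsd17b11 (r = 0.78), a dehydrogenase of lipid droplets. Cyp4v3 was most like Acsm1 (r = 0.86), a medium-chain acyl-CoA synthetase, and Cyp4f4 most like Sdc2 (r = 0.85), a syndecan. Ppara itself, the gene of the receptor, had r = −0.24 with Cyp4a1 and 0.00 with Cyp4a2.

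**Figure D4:**
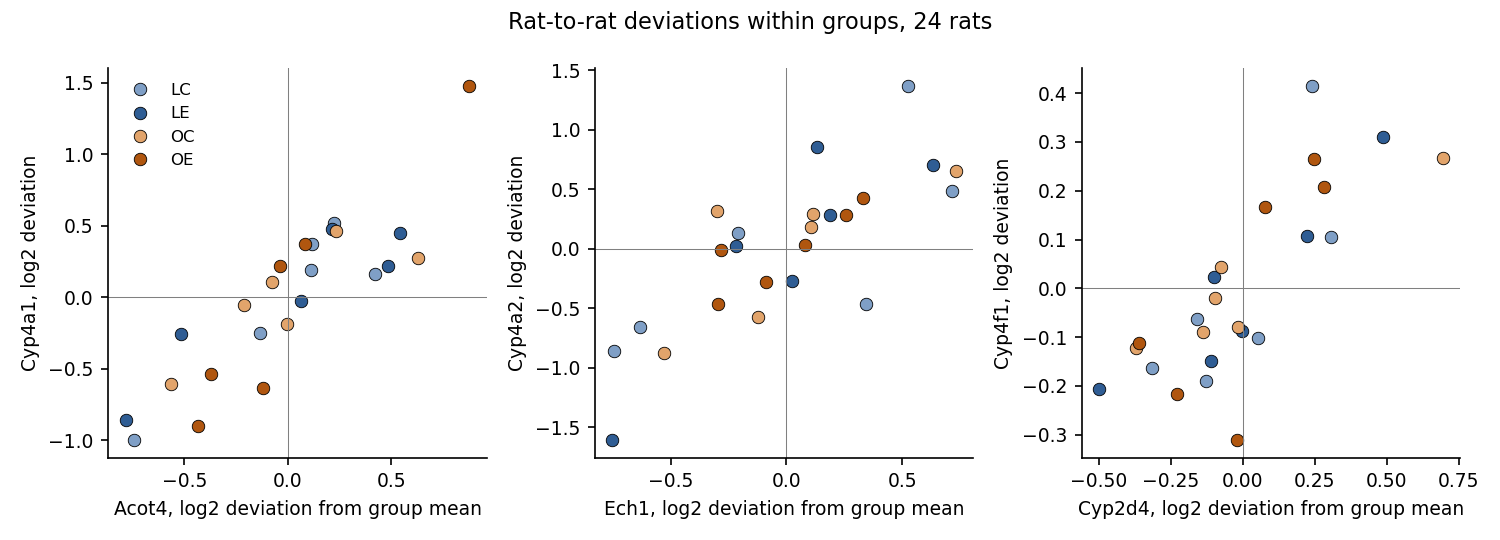
Deviation of each of 24 rats from the mean log2 signal of its group, for Cyp4a1 against Acot4 (r = 0.87), Cyp4a2 against Ech1 (r = 0.79) and Cyp4f1 against Cyp2d4 (r = 0.79), coloured by group. Each partner is the transcript with the highest r, and no line was fitted to a group. Single rats depart from the common trend, such as OC replicate 13 (Cyp4a2 0.32, Ech1 −0.30) and LC replicate 5 (Cyp4a2 −0.47, Ech1 0.34).

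Genes around the CYP4 step were read from lists that hold none of the 8. For every list from here on, the share called over all transcripts is the background. By limma it was 2.59% in OC vs. LC, 2.11% in OE vs. LE and 6.52% averaged over both diets. Of 22 measured PPARα targets outside the family, 6 rose in OC vs. LC, none fell and 16 did not pass, with a median log2 difference of 0.67 against 0.00 over all transcripts. Those that rose most were Cd36 (8.42-fold, SE 0.33 on the log2 scale), the fatty acid translocase, Ehhadh (2.43-fold, SE 0.25), the bifunctional enzyme of peroxisomal oxidation, Pex11a (2.27-fold, SE 0.21), which divides peroxisomes, and Acot1 (1.73-fold, SE 0.22), with adjusted p of 0.0455 or less from limma. In OE vs. LE 3 rose (Cd36, Acadl and Vnn1) and none fell, with a median of 0.46, and averaged over both diets 13 rose and 1 fell (Acadm, at −0.42). The log2 differences of Cyp4a1, Cyp4a2 and Cyp4a8 in OC vs. LC, 0.38, 0.42 and 0.55, were below this median. In OE vs. LE Cyp4a1 (0.08) and Cyp4a8 (0.03) were below the median of 0.46 and Cyp4a2 (0.48) just above it, and whether they differ from the other targets was not tested.

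**Figure D5:**
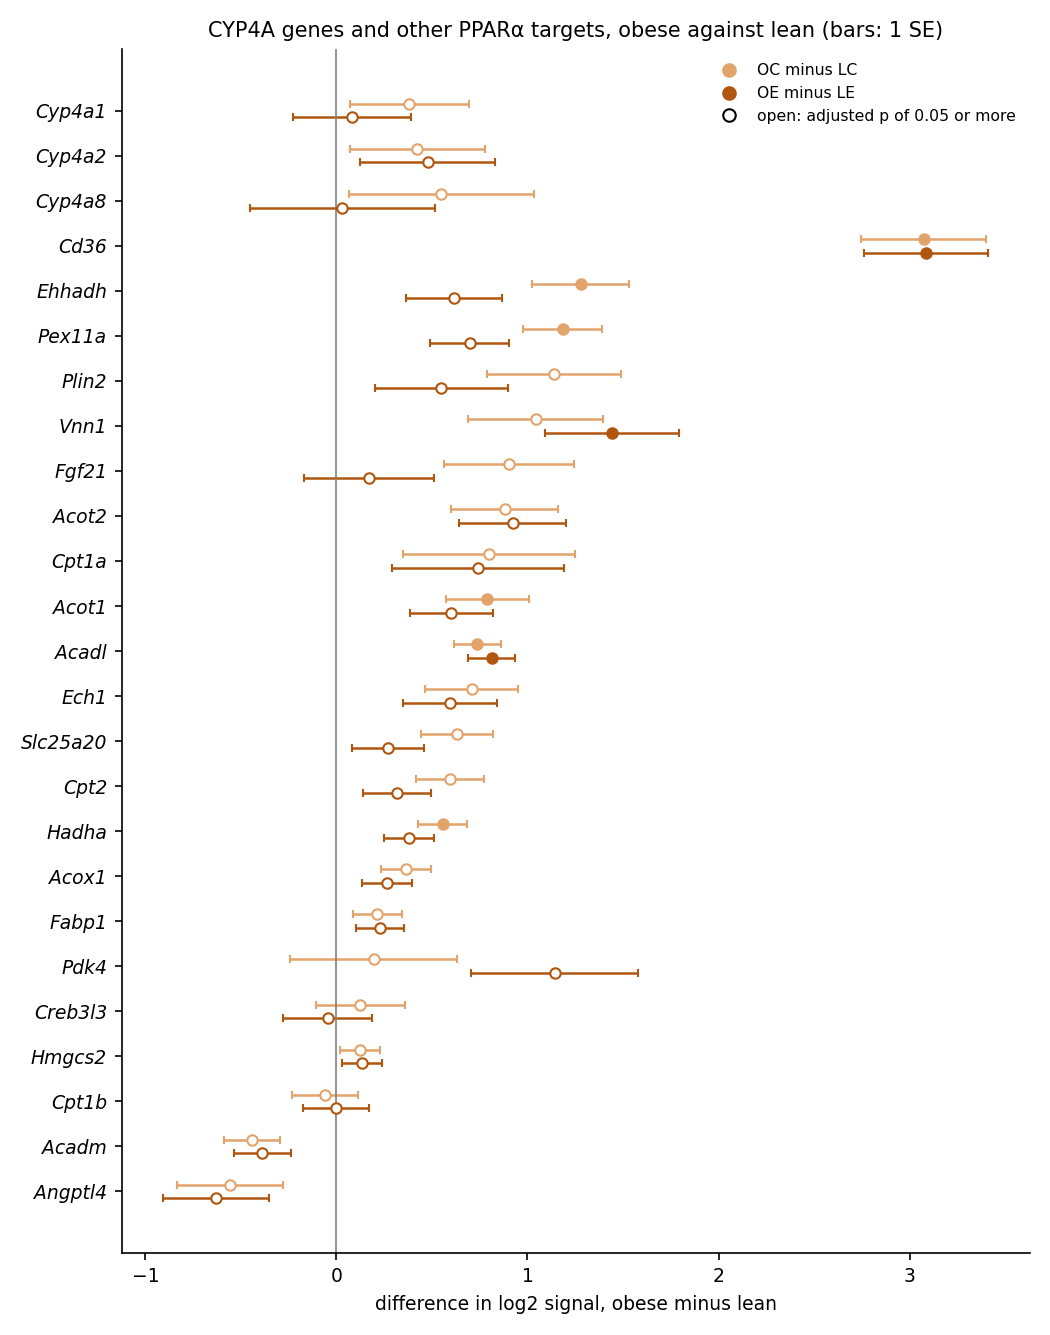
Difference in log2 signal between obese and lean rats for 3 CYP4A genes and 22 other PPARα targets, without (OC minus LC) and with ecdysterone (OE minus LE); bars are 1 SE and filled points have an adjusted p under 0.05 from limma. Cd36 stands at 3.07, Ehhadh and Pex11a near 1.2 without ecdysterone, and no CYP4A point is filled.

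Of 18 measured genes of the steps after omega-hydroxylation, 5 rose in OC vs. LC, 2 in OE vs. LE and none fell in either, with medians of 0.42 and 0.21. They were Aldh1a1 (4.35-fold, SE 0.38, adjusted p = 0.000971), an aldehyde dehydrogenase of retinal and lipid aldehydes, Adh4 (2.68-fold, SE 0.30, adjusted p = 0.00442) and Adh1 (1.81-fold, SE 0.23, adjusted p = 0.044), alcohol dehydrogenases that also oxidise omega-hydroxy fatty acids, Ehhadh, also on the list above, and the peroxisomal transporter Abcd3, all by limma. Aldh1a1 and Adh4 were also higher in OE than in LE. Of 6 electron donors of microsomal P450 enzymes, 1 rose in OC vs. LC, Cyb5r3 (1.74-fold, SE 0.21, adjusted p = 0.0343), the reductase of cytochrome b5. In OE vs. LE none of the 6 passed by limma (Cyb5r3 0.25, adjusted p = 0.696). Averaged over both diets 1 of the 6 rose and 1 fell. Cyb5a, the gene of cytochrome b5, differed by −0.64 in OC vs. LC (SE 0.23, adjusted p = 0.175 by limma). In OE vs. LE Cyb5a differed by −0.52 (SE 0.23, adjusted p = 0.333 by limma). Por, the P450 reductase, differed by 0.47 in OC vs. LC (SE 0.52, adjusted p = 0.796 by limma). In OE vs. LE it differed by 1.13 (SE 0.52, adjusted p = 0.357 by limma) and did not pass.

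Among 10 transcriptional regulators 2 rose and none fell in OC vs. LC, Srebf1 (2.36-fold, SE 0.27, adjusted p = 0.00603), the driver of lipogenesis, and Nr0b2 (2.59-fold, SE 0.38, adjusted p = 0.0428), a corepressor of nuclear receptors. In OE vs. LE none of the 10 passed by limma (Srebf1 0.65, adjusted p = 0.279, and Nr0b2 0.69, adjusted p = 0.474). Ppara differed in OC vs. LC by 0.28 (SE 0.34, adjusted p = 0.822) by limma. Of 8 epoxygenases and epoxide hydrolases, the other branch of arachidonic acid oxidation by P450, Cyp2c11 fell (4.86-fold, SE 0.33, adjusted p = 4.86e-05) and the soluble epoxide hydrolase gene Ephx2 rose (2.14-fold, SE 0.22, adjusted p = 0.00347) in OC vs. LC. In OE vs. LE Cyp2c11 fell (3.33-fold, adjusted p = 0.00231 by limma), and Ephx2 differed by 0.47 and did not pass (adjusted p = 0.383). Averaged over both diets 2 of these 8 genes rose and 4 fell. None of 11 genes of the leukotriene pathway, whose product leukotriene B4 is a substrate of CYP4F, passed in either comparison by limma, and the smallest p were those of Alox5ap (−0.52, SE 0.16, adjusted p = 0.0799) and Cysltr1 (−0.65, SE 0.21, adjusted p = 0.112) in OC vs. LC. Of these 11 genes 5 were at background in every group, and the mean signals of Alox5ap (5.26) and Cysltr1 (6.44) were below and just above its limit of 6.37, so that their differences say little.

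Because Cyp4a2 is male-biased in the rat, genes of the sexually different liver programme set by growth hormone were read beside it. Of 5 measured male-biased genes 2 fell in OC vs. LC, Cyp3a18 (20.7-fold, SE 0.35) and Cyp2c11, and 3 fell in OE vs. LE, with Hsd3b5 as the third. Of 9 female-biased genes 5 rose in OC vs. LC and none fell, led by the prolactin receptor gene Prlr (25.7-fold, SE 0.60) and the sulphotransferases Sult2a6 (6.03-fold, SE 0.32) and Sult2a2 (3.77-fold, SE 0.35). In OE vs. LE 3 of the 9 rose and none fell. The median of the female-biased list was 0.74 in OC vs. LC and 0.27 in OE vs. LE. Cyp4a2 itself differed by 0.42 and 0.48, not past the threshold, against medians of −0.63 and −0.69 for the male-biased list. None of 17 clock genes passed in a genotype comparison by limma (smallest p in OC vs. LC for Nfil3, −0.91, SE 0.40, adjusted p = 0.318), although the median of 9 clock outputs was 0.44 in OC vs. LC and 1.25 in OE vs. LE.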

How the data were processed

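Liver RNA of 24 rats was measured on 1 array each. Per the labels and the study's methods, the authors background-corrected, normalised and summarised the arrays jointly (SST-RMA, Expression Console 1.4 in the submitters' processing notes), and the deposited values are log2 signals. Columns with group means, log ratios, fold changes and p-values of the authors' own comparisons were not used. A series-wide copy of the signals, used as an alternative, deviated by no more than 0.005. Scanner intensities were not used, so that the joint normalisation, which can compress low signals, was kept as it is. Median signals of the arrays were 6.51 to 6.61, their average correlations within a group 0.983 to 0.988, and no pair of arrays correlated above 0.990.

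The probe set with the highest mean signal stood for a symbol. The main model was limma (version 3.58.1, R 4.3.3) with 4 group means over 23188 transcripts, 20 residual and 8.39 prior degrees of freedom, Benjamini-Hochberg adjustment over all of them and a threshold of 0.05. Exact permutation tests, two-sided, ran over the 12 rats of a comparison. The procedure was tested on simulated data. The members, pairs and gene lists were chosen with earlier results of these data known. Named are the members, the other CYP4 symbols and, for each list, at most the 4 largest called differences of OC vs. LC, or the 2 smallest p where none was called. Por, Cyb5a, Ppara, Abcd3, Acadl, Acadm and genes called only in OE vs. LE were named after their values were seen. The single half-site AGGTCA was searched after the other motifs. The number of arrays limits the precision, and the labels give neither batch nor cage. Alternatives were the methods' Student's test, fits of 2 groups alone, median centring, quantile normalisation, 2 filters on low signals, a trended and robust variance prior, weights per array, the series-wide copy, means over probe sets, clock output level as a covariate, and the omission of each array. Protein sequences were not used here.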

Additional observations from a re-analysis of the deposited data

How the results depend on the processing

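Cyp4f1 kept its direction and its side of the threshold under all alternatives tried, with log2 differences of −0.73 to −0.59 in OC vs. LC and −0.97 to −0.85 in OE vs. LE when single rats were left out. The count of members called was the same in every setting. Of 1905 recomputed differences of members 56 changed sign, none of them with an adjusted p below 0.836 by limma. The methods' Student's test was run with Benjamini-Hochberg adjustment and no fold-change filter. Over all transcripts it called 1.10% in OC vs. LC (2.59% by limma) and 0.578% in OE vs. LE (2.11% by limma). This is not the paper's criterion, which was an unadjusted p with a fold-change filter. When single rats were left out, the difference of the genotype effect between Cyp4f1 and Cyp4f4, OC vs. LC, ranged from −0.55 to −0.38. It passed the threshold over the pairs in 2 of 12 omissions, LC replicate 6 (−0.55) or OC replicate 17 (−0.53). The adjusted p of the exact permutation test was 0.026 to 0.156 over the 12. The difference of the genotype effect between Cyp4f1 and Cyp4f18, OC vs. LC, took values of −0.71 to −0.51. With Cyp4f18 at background it is no test of a difference between the genes, and no conclusion is drawn from it. Differences of Cyp4f4, Cyp4b1, Cyp4f18 and Cyp4v3 came under 0.05 in the unadjusted exact permutation test in 7 cases with 1 rat left out. No paired analysis was possible because the replicate numbers are not shared between groups. At signals near background, as for Cyp4f18 and some rats for Cyp4a8, a difference is not detectable.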
